A study of Mus musculus with 27 samples.

Results

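The genes expressed differently by induced pluripotent stem cells (iPSCs) and by pre-iPSCs were compared over the 20156 protein-coding genes held by the expression tables, in 4 RNA-seq libraries, which belong to a series of 27 samples. Pre-iPSCs are stably growing intermediates in which reprogramming has stalled before pluripotency is reached. Both cell types came from mouse embryonic fibroblasts (MEFs) of mid-gestation embryos that carried an Oct4-GFP transgene in a mixed CBA/CaJ, C57BL/6J and 129Sv/Jae background, and both had received Oct4, Sox2, Klf4 and c-Myc by retrovirus. Pre-iPSCs and iPSCs were grown on mitomycin C-treated MEF feeders in serum with 1000 units/ml of LIF, for 6 passages before RNA was taken. The study used a pair of pre-iPSC clones and the iPSCs that correspond to them, obtained earlier, but no source at hand ties a library to its clone. Each cell type has 2 libraries, called replicates 1 and 2, and each replicate has its own table, which also holds a MEF library. Expression was deposited as FPKM, fragments scaled to transcript length and to the mapped fragments of the library, so levels of different genes are compared per length. All changes are given on the scale of log2(FPKM + 1), as iPSCs minus pre-iPSCs. The number of reads behind a value is not given. The p-values measure the spread between libraries only, and the MEF libraries were part of the main fits, so their spread enters too.

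Pluripotency rests on a small circuit of transcription factors, in which Pou5f1 (Oct4), Sox2 and Nanog bind their own and each other's genes, and which LIF acts on through Stat3 in mouse cells. Factors such as Esrrb, Klf2, Tbx3 and Zfp42 mark the naive state, the state of the inner cell mass. Reprogramming by retroviral factors is commonly described as a loss of the fibroblast programme, a gain of epithelial character and, last, activation of the endogenous circuit. Polycomb proteins place H3K27me3 on genes that are kept silent, while H3K4me3 marks the promoters of active or poised genes.

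The labels were checked against markers. In pre-iPSC replicates 1 and 2, Nanog was at 0.519 and 0 FPKM, and in iPSCs at 49.5 and 73.6 FPKM. All 12 pluripotent cell markers were measured, and 8 of them were called higher in iPSCs and none lower. Over all genes tested, 3.91% were called higher and 4.71% lower. Of all 12401 genes tested, 2684 had an unadjusted p below 0.05 by limma. Of the 20 fibroblast markers limma called none in either direction, with 2 at an unadjusted p below 0.05. Their summed level was 577.3 and 258.7 FPKM in pre-iPSCs and 320.5 and 442.1 FPKM in iPSCs, against 11790 and 14210 FPKM in MEFs, and the part that feeder cells have in these levels was not tested. The libraries of both cell types held 10580 to 10995 genes at 1 FPKM or more. In bulk RNA, fewer cells of a type and less RNA per cell cannot be told apart.

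iPSC replicate 1 stood apart on chromosome 8. In replicate 1 the median gene of chromosome 8 was 0.37 higher in iPSCs than in pre-iPSCs on the log2 scale, while the medians of the other chromosomes, Y left out, ran from -0.33 to -0.03. In replicate 2 chromosome 8 was at -0.00, inside the range of the others (-0.13 to 0.12). Chromosome 8 also differed by 0.52 between the iPSC libraries and by only 0.15 between the pre-iPSC libraries, where other chromosomes ran from 0.05 to 0.22. The same replicate stood out in the chromatin data of the series: chromosome 8 held 7.45% to 7.55% of the reads in called nucleosomes in its 3 libraries (H3K4me3, H3K27me3 and H3K9me3) and 5.17% to 5.37% in the other 11 libraries examined. A cause was not tested. Among the genes called below, 37 of the higher and 14 of the lower lie on chromosome 8, Zfp42, Klf2 and Cdh1 among them. These are 5.51% and 2.08% of its 672 tested genes, beside 3.91% higher and 4.71% lower over all genes tested. A fit without this chromosome called 448 higher and 570 lower.

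**Figure D1:**
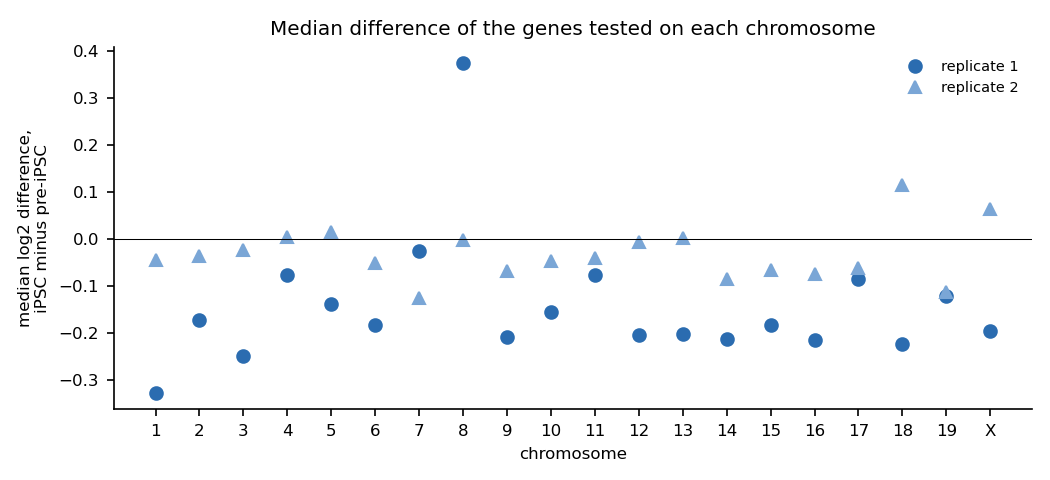
Median log2 difference between iPSCs and pre-iPSCs (vertical axis) of the genes tested on each chromosome (horizontal axis), with replicate 1 as circles and replicate 2 as triangles. Chromosome 8 in replicate 1 sits at 0.37, above every other chromosome shown.

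Genes averaging 0.5 FPKM or more across the 6 RNA libraries were tested. Of these 12401 genes, 485 (3.91%) were called higher and 584 (4.71%) lower in iPSCs than in pre-iPSCs, with limma at an adjusted p below 0.05 and at least a 2-fold change. All of them moved the same way in both replicates, as did 8262 of all 12401 genes tested. The calls were made from these libraries, so agreement was favoured by the choice and supports nothing. Of the genes called, 478 of the 485 and 583 of the 584 passed 2-fold in each replicate. By that description alone 640 genes (5.16%) were higher and 912 (7.35%) lower. The median change of all genes was -0.09. The counts depended on the libraries: without iPSC replicate 1 limma called 104 higher and 75 lower, without iPSC replicate 2 it called 59 and 28, and with the MEF libraries left out of the fit it called 878 and 1252.

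**Figure D2:**
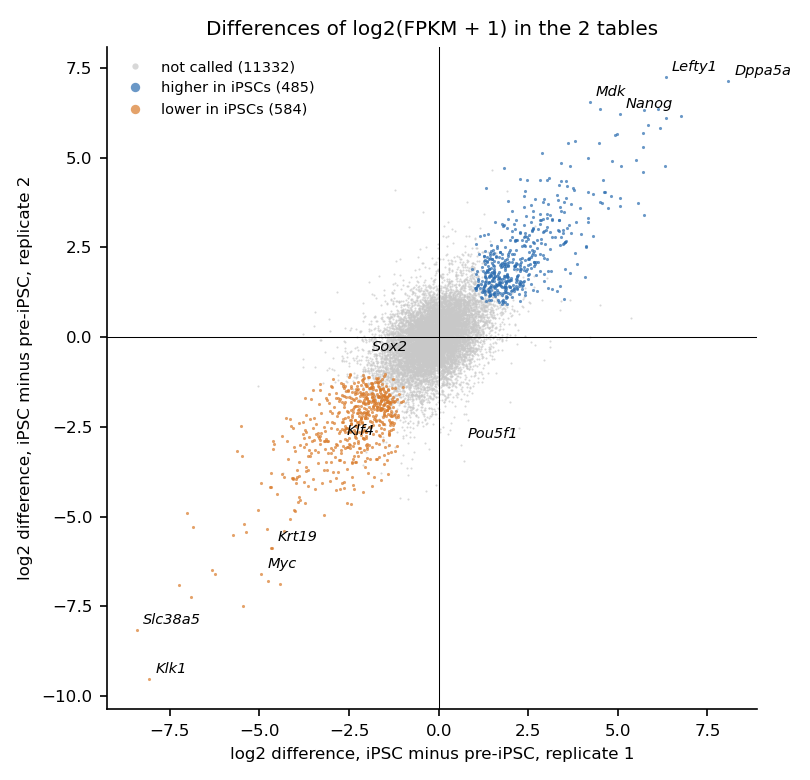
Log2 differences between iPSCs and pre-iPSCs of the 12401 genes tested, replicate 1 on the horizontal and replicate 2 on the vertical axis. Points in blue are the 485 genes called higher, points in orange the 584 called lower and points in grey the genes not called, where Pou5f1 lies at 0.63 in replicate 1 and -3.00 in replicate 2.

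Many of the genes called higher were low in MEFs as well as in pre-iPSCs. Of the 485, 315 (64.9%) had a mean below 1 FPKM in both, against 794 of all genes tested (6.4%), and 70 were listed at 0 in both pre-iPSC libraries, against 88 of all. Genes this low in both cell types can pass the filter mainly through the iPSC libraries, so these shares describe the called genes and support nothing. Their median level was 0.287 and 0.166 FPKM in pre-iPSCs and 6.77 and 5.55 FPKM in iPSCs. Of the 584 genes called lower, 376 (64.4%) were at 1 FPKM or more on average in MEFs, below the 10623 of all genes tested (85.7%), and 460 were lower in MEFs than in pre-iPSCs, as were 5698 of the 12401. Genes called lower were chosen for high pre-iPSC levels, so these counts too are descriptions. Their median level was 3.17 and 3.32 FPKM in MEFs, 13.2 and 15.5 FPKM in pre-iPSCs and 1.52 and 1.70 FPKM in iPSCs.

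The largest rise was that of Dppa5a, which encodes an RNA-binding protein of embryonic stem cells. It stood at 1.70 and 5.01 FPKM in pre-iPSCs and at 725 and 842 FPKM in iPSCs, a change of 7.60 ± 0.38 (SE, adjusted p = 0.000484 by limma). Lefty1, a secreted inhibitor of Nodal, followed with 0.428 and 0.238 FPKM in pre-iPSCs and 114 and 187 FPKM in iPSCs (change 6.79 ± 0.41). Both were above 100 FPKM in each iPSC library, while in pre-iPSCs Lefty1 was below 0.5 FPKM and Dppa5a was low but present. Pla2g1b, a secreted phospholipase, was listed at 0 in every pre-iPSC and MEF library and reached 108 and 71.1 FPKM in iPSCs. Cyct, the cytochrome c of the testis, was likewise listed at 0 there and reached 51.4 and 38.4 FPKM. Stra8, a gene of meiotic entry, rose from 0.120 and 0 to 77.1 and 80.7 FPKM, and Dnmt3l, the cofactor of the de novo DNA methyltransferases, from 0.0511 and 0 to 83.7 and 67.8 FPKM. Among the remaining large rises, Fabp3 and Mdk were the exceptions in having been expressed in MEFs. Fabp3, a fatty acid-binding protein, went from 19.9 and 100 FPKM in MEFs to 2.03 and 0.909 FPKM in pre-iPSCs, and stood at 161 and 152 FPKM in iPSCs. Mdk, a growth factor, varied widely in pre-iPSCs (50.8 and 4.43 FPKM) and lay at 962 and 511 FPKM in iPSCs (change 5.39 ± 0.98, adjusted p = 0.0177 by limma).

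The largest fall was that of Klk1, a kallikrein protease of glandular tissue, which was at 585 and 1178 FPKM in pre-iPSCs and at 1.16 and 0.598 FPKM in iPSCs (change -8.81 ± 0.43, adjusted p = 0.000484 by limma). Slc38a5, an amino acid transporter, fell from 553 and 369 to 0.610 and 0.296 FPKM. Both genes were near 0 in MEFs too, so their high level was seen in pre-iPSCs alone among the 3 cell types. The same held for Nccrp1 (121 and 114 FPKM in pre-iPSCs), Tac2 (62.1 and 179), Krtdap (177 and 50.03), Sprr2b (129 and 28.7), Cldn11 (62.0 and 49.2), Atp2a3 (107 and 89.0) and Krt13 (42.0 and 35.7), all of which were below 2 FPKM in every MEF and iPSC library. Krtdap, Sprr2b, Krt13, Lgals7 and S100a3 belong to genes best known from stratified epithelium and hair. Lgals7 stood at 152 and 215 FPKM in pre-iPSCs and at 0 and 0.806 FPKM in iPSCs, and Msln, mesothelin, went from 94.6 and 119 to 0.188 and 0.342 FPKM. Npy, the precursor of neuropeptide Y, differed between the pre-iPSC libraries (80.8 and 649 FPKM) and was at 2.02 and 4.85 FPKM in iPSCs.

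**Figure D3:**
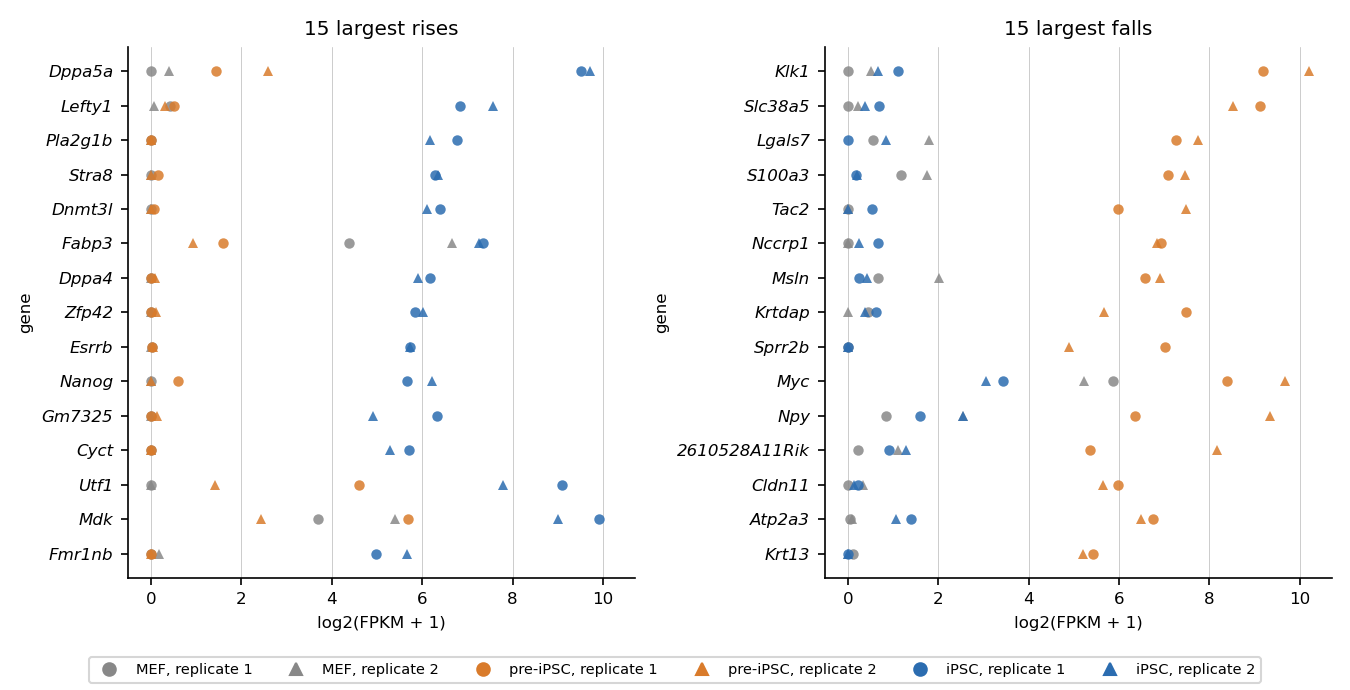
Expression as log2(FPKM + 1) (horizontal axis) of the 15 genes with the largest rises (left) and the 15 with the largest falls (right), with 1 point a library, circles for replicate 1 and triangles for replicate 2. In every gene the iPSC libraries lie beyond both pre-iPSC libraries, and in the falls the MEF libraries lie below the pre-iPSC libraries. Both patterns are favoured by the choice of genes and are descriptions.

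The start-site window of Klk1, the gene with the largest fall, is printed here as an example of a promoter with few CpG. Windows run from 250 bases before the start site to its first 50 bases, in mm9, read 5′ to 3′, with each CG dinucleotide in capitals, since CpG density separates promoter classes. The window of Klk1 holds 1 CpG.
Klk1, chr7:51480557-51480856, plus strand: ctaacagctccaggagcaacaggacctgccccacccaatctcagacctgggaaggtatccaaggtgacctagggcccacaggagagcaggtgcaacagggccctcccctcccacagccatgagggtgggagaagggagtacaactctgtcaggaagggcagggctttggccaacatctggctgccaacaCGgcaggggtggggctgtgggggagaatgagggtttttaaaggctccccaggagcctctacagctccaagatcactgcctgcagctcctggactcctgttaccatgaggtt
The median over the windows of all genes tested was 21 CpG. The medians were 13 CpG for the genes called higher and 16 for the genes called lower. At most 5 CpG were found in 22.1% of the windows of genes called higher, in 19.3% of those called lower and in 8.68% of all tested. Over all 20156 genes, with those not tested included, the median was 15 CpG and 29.8% had at most 5. The called genes thus had fewer CpG than the genes tested, but not a larger CpG-poor share than all genes. The 15 largest rises and the 15 largest falls both had a median of 7 CpG.

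Of the 4 factors used for reprogramming, Myc and Klf4 were called lower and Sox2 and Pou5f1 were not called. Reads of the retroviral copies and of the endogenous genes cannot be told apart in these values. Myc fell from 337 and 816 FPKM in pre-iPSCs to 9.85 and 7.34 FPKM in iPSCs (change -5.79 ± 0.51, adjusted p = 0.0016 by limma), below its 57.8 and 36.3 FPKM in MEFs. Klf4 fell from 674 and 782 to 99.6 and 105 FPKM (change -2.82 ± 0.38, adjusted p = 0.00625). Sox2 was at 272 and 171 FPKM in pre-iPSCs and at 65.7 and 116 FPKM in iPSCs, without overlap, but did not pass (change -1.30 ± 0.43, adjusted p = 0.12). Pou5f1 was at 378 and 3184 FPKM in pre-iPSCs and at 586 and 397 FPKM in iPSCs, so that the replicates went in opposite directions (change -1.18 ± 0.77, adjusted p = 0.45).

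Of the 22 naive pluripotency factors, 11 were called higher (50%) and 1, Klf4, lower (4.55%), beside 3.91% and 4.71% of all genes tested. Esrrb, an orphan nuclear receptor, was at 0.0188 and 0.0335 FPKM in pre-iPSCs and at 52.5 in both iPSC libraries (change 5.70 ± 0.35). Zfp42 (Rex1), a zinc finger protein used as a marker of the naive state, rose from 0 and 0.0837 to 56.0 and 63.9 FPKM. Sall4, a zinc finger factor that acts with Pou5f1 and Nanog, was already at 8.08 and 4.12 FPKM in pre-iPSCs and reached 94.3 and 62.2 FPKM. Dppa3, a maternal factor, was listed at 0 in both pre-iPSC libraries and at 11.3 and 41.2 FPKM in iPSCs. The list's median change was 1.57 against -0.09 for all genes. Members such as Esrrb and Zfp42 passed the filter only through the iPSC libraries and had to differ, so the list's share is a description. Without iPSC replicate 1 the count of higher members was 5 and without iPSC replicate 2 it was 4.

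Of 27 further genes typical of embryonic stem cells, 14 were called higher (51.9%, beside 3.91% of all genes tested) and none lower, and 8 without either iPSC library in turn. Dppa4, a nuclear protein that acts with Dppa2, rose from 0 and 0.0568 to 71.3 and 59.1 FPKM. Members such as Dppa4 passed the filter only through the iPSC libraries, so the share of this list too is a description. Utf1, a chromatin factor, differed between the pre-iPSC libraries (23.2 and 1.67 FPKM) and was at 544 and 220 FPKM in iPSCs. Of 11 genes of the later, primed state 4 were called higher (36.4%) and none lower, namely Dnmt3a, Dnmt3b, Sox3 and Lef1. The count was 2 of 11 without iPSC replicate 1, 0 of 10 without iPSC replicate 2 and 1 of 14 with no filter. Dnmt3b rose from 15.6 and 1.63 to 40.9 and 45.7 FPKM (adjusted p = 0.048 by limma), and Dnmt3a from 4.09 and 3.69 to 23.3 and 12.4 FPKM. Both encode de novo DNA methyltransferases. Together with Dnmt3l they were the called members of the 17 DNA methylation and Tet genes (17.6%). The count was 1 without iPSC replicate 1, without iPSC replicate 2, without pre-iPSC replicate 2 and with no filter, and with the MEF libraries left out of the fit it was 5 higher and 2 lower.

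Of 18 tested members of the Nodal and activin pathway 5 were called higher (27.8%, beside 3.91% of all genes tested) and none lower. They included the ligand Nodal (10.2 and 0.354 FPKM in pre-iPSCs, 39.1 and 34.4 FPKM in iPSCs), its inhibitors Lefty1 and Lefty2, and the transcription factor Foxh1. Lefty2 rose from 0.233 and 0.0593 to 26.3 and 43.7 FPKM. Of 20 members of the Fgf and Erk pathway 3 were higher (15%), the ligands Fgf4, Fgf15 and Fgf17, and 1 was lower, Fgfbp1, a carrier of Fgf ligands, which fell from 110 and 203 to 4.33 and 13.4 FPKM. Fgf4 was clearly present in pre-iPSCs (23.1 and 13.9 FPKM) and reached 54.8 and 56.3 FPKM in iPSCs. In the Wnt pathway 4 of 31 were higher (12.9%), the transcription factors Tcf7 and Lef1, the target and feedback inhibitor Axin2 and the secreted antagonist Sfrp2. The 31 are those of 40 Wnt members that passed the filter. Axin2, Fgf15 and Lefty2 were at 0.374 FPKM or below outside iPSCs. Such members passed the filter only through the iPSC libraries, so the shares of these lists are descriptions. These counts moved with the libraries. Without iPSC replicate 1 the higher members were 2 for Nodal, 1 for Fgf and 1 for Wnt, and without iPSC replicate 2 they were 3, 0 and 0. With the MEF libraries left out of the fit, Nodal had 6 higher and 2 lower, Fgf 5 and 5, and Wnt 5 and 2.

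In the TGF-beta, BMP and LIF lists 2, 2 and 1 members were called lower and none higher, beside 4.71% lower over all genes tested. Tgfbr2, the type II receptor of TGF-beta, fell from 23.5 and 16.4 to 2.34 and 4.38 FPKM, and Ltbp1, which binds latent TGF-beta, from 31.3 and 24.9 to 2.95 and 5.29 FPKM, the 2 called of 20 members. Id1, a target of BMP signalling, fell from 257 and 213 to 24.2 and 32.3 FPKM (change -3.02 ± 0.46), and Id4 was the other called of 21 members. Of 16 LIF and Stat3 pathway members 1 was lower, Osmr, a receptor subunit for oncostatin M, which was at 23.3 and 27.5 FPKM in pre-iPSCs, at 25.3 and 29.7 FPKM in MEFs and at 2.52 and 3.47 FPKM in iPSCs. Of 15 AP-1 and immediate early genes 3 were lower, Atf3, Fosl2 and Maff. Without either iPSC library in turn none of these 4 lists had a called member. With the MEF libraries left out of the fit, 8 BMP and 5 AP-1 members were lower and none higher, TGF-beta had 1 higher and 5 lower, and the LIF list had 2 higher and 2 lower, as it also had with quantile normalization.

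The germline list names genes of germ cell specification, meiosis and the piRNA pathway, which silences transposons in germ cells. Of 55 members measured, 37 passed the filter on low values, and 32 of these were called higher (86.5%, beside 3.91% of all genes tested) and none lower. Members that passed only through the iPSC libraries had to differ, so this share is a description. With no filter 54 members were tested and 30 were called higher. Without iPSC replicate 1 the count was 14 of 34 and without iPSC replicate 2 it was 8 of 34. Ddx4, the germ cell RNA helicase also called Vasa, was at 0.0585 and 0 FPKM in pre-iPSCs and at 6.13 and 4.64 FPKM in iPSCs (change 2.62 ± 0.30, adjusted p = 0.00335 by limma). Mael, of the piRNA pathway, was listed at 0 in both pre-iPSC libraries and at 17.0 and 15.6 FPKM in iPSCs. Tuba3a, a testis tubulin, rose from 0.172 and 0 to 39.0 and 26.3 FPKM, Sohlh2, a germ cell transcription factor, from 0 in both to 25.7 and 11.01 FPKM, and Tex19.1 from 0.0977 and 0.783 to 24.98 and 22.6 FPKM. All of these genes were below 1 FPKM in both pre-iPSC libraries and above 4 FPKM in both iPSC libraries.

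A sequence feature that did not enter the choice of members was found in some of the germline genes. Of 5 motifs searched, the hexamer CACGTG, an E-box that is the same on both strands, was found in the start-site window of 11 of the 32 members called higher (34.4%), against 10.1% of all genes tested and 10.1% of the genes called higher, and 21 of the 32 lacked it. The 11 were Mael, Fkbp6, Hormad1, Rnf17, Ddx4, Sycp3, Stag3, Taf7l, Mov10l1, Sycp1 and Stk31. The windows of the 4 with the largest rises are given here with the hexamer in capitals, in mm9.
Mael, chr1:168168826-168169125, minus strand: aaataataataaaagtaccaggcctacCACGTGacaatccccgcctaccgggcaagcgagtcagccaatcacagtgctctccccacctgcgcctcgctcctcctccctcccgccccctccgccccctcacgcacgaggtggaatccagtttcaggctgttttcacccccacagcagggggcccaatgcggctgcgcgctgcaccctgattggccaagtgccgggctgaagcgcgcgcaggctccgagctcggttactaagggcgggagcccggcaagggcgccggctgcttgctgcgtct
Fkbp6, chr5:135825812-135826111, minus strand: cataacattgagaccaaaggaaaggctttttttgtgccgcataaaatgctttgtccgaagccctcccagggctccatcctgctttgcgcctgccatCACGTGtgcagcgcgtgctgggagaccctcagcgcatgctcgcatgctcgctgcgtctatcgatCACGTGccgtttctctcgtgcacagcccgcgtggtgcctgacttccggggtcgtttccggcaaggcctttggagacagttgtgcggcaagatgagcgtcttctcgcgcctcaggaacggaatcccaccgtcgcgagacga
Hormad1, chr3:95363349-95363648, plus strand: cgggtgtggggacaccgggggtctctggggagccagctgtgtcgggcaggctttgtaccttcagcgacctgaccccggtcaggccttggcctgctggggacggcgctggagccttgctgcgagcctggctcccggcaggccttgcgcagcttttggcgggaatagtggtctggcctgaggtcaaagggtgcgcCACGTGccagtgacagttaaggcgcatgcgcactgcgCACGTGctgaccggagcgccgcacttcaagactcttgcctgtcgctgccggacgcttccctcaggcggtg
Rnf17, chr14:57021284-57021583, plus strand: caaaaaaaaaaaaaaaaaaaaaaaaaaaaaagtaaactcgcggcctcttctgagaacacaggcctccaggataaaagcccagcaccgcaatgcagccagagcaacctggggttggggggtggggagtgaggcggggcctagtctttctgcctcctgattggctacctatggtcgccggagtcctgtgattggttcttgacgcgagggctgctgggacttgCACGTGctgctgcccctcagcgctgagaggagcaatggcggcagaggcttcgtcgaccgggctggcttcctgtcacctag
Fkbp6 and Hormad1 hold 2 copies each and the other windows 1. All 4 genes were at 0.0136 FPKM or below in pre-iPSCs. The windows of the 32 members had a median of 17 CpG, between that of the genes called higher and that of all genes tested. A match is a description of the letters and not of binding. Of the other motifs searched on both strands, GGGCGG was in 55.7% of the windows of genes called higher, 65.1% of those called lower, 66.6% of all tested and 53.1% of the 32 germline windows, TATAAA in 9.69%, 8.73%, 6.87% and 15.6%, CCAAT in 41.4%, 30.7%, 38.0% and 43.8%, and the octamer ATGCAAAT in 2.47%, 3.08%, 1.46% and 0%. Over all 20156 genes these motifs were in 49.1%, 12.7%, 38.1% and 1.7%, and CACGTG was in 8.06%.

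Some members of X-linked germ cell families and of the two-cell stage genes were called higher. Of the Rhox, Xlr and Mage genes, X-linked families expressed mainly in germ cells and placenta, 13 of 30 passed the filter and 8 were called higher (61.5%, beside 3.91% of all genes tested). Trap1a, an X-linked tumour antigen gene, rose from 0.385 and 4.40 to 32.7 and 87.4 FPKM. Of the 21 two-cell stage genes 9 passed the filter and 6 were higher (66.7%), Pramef12 and 5 Zscan4 genes, while Sp110 was lower. As in the germline list, members at or near 0 elsewhere pass the filter only through the iPSC libraries, so these shares are descriptions. With no filter 7 of 20 were called higher in each list. Zscan4f was listed at 0 in all pre-iPSC and MEF libraries and at 32.7 and 11.5 FPKM in iPSCs, and Zscan4c at 5.99 FPKM or more in iPSCs. Zscan4 genes and some of the Rhox and Xlr genes are close copies. The study kept only uniquely mapped reads, so reads that match several copies were left out and the levels of these genes are uncertain. The count of higher members was 7 for the Rhox, Xlr and Mage genes and 3 for the two-cell genes without iPSC replicate 1, and 2 and 3 without iPSC replicate 2.

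Some keratins and other genes of surface epithelium were lower in iPSCs. Of 10 keratins tested 5 were called lower (50%) and 1 higher (10%), beside 4.71% lower and 3.91% higher over all genes tested. These 10 of 17 keratins passed the filter. Members that passed only through the pre-iPSC libraries had to differ, so these shares are descriptions. Krt19 fell from 95.6 and 231 to 2.81 and 2.99 FPKM (change -5.26 ± 0.44, adjusted p = 0.00158 by limma), Krt17 from 97.1 and 15.3 to 1.21 and 0.622 FPKM, and Krt14, a keratin of the basal epidermis, from 13.48 and 6.28 to 0.0493 and 0.112 FPKM. Krt18, a keratin of simple epithelium, went the other way, from 1.06 and 0.837 to 5.33 and 9.64 FPKM, and its usual partner Krt8 was at 14.0 and 20.3 FPKM in pre-iPSCs and 2.11 and 8.86 FPKM in iPSCs without passing (adjusted p = 0.065). The summed level of 12 keratinocyte markers was 368.6 and 297.3 FPKM in pre-iPSCs and 24.2 and 34.0 FPKM in iPSCs. Of the 6 tested, 3 were called lower (50%), Perp, Sfn and Krt14, and the same limit holds for this share. Defining markers of that cell type were low in pre-iPSCs: Krt5 was at 1.06 and 0.168 FPKM and Trp63 at 0.154 and 0 FPKM. Without iPSC replicates 1 and 2 in turn, 2 and 1 keratins and none of the keratinocyte markers were called lower.

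Of 32 epithelial junction genes tested 6 were called higher (18.8%) and 3 lower (9.38%), beside 3.91% and 4.71% of all genes tested. Without either iPSC library in turn 1 was higher and none lower, and without chromosome 8, where Cdh1, Cdh3 and Esrp2 lie, 4 were higher and 2 lower. The tight junction genes Cldn6 (0.287 and 0 to 15.4 and 26.2 FPKM), Cldn4 and Cldn7 rose, and so did the cadherin gene Cdh1, which was at 27.01 and 6.56 FPKM in pre-iPSCs and at 71.9 and 54.2 FPKM in iPSCs (adjusted p = 0.04 by limma). The desmosome gene Pkp1 fell from 6.71 and 12.7 FPKM to 0 in both, and Jup, plakoglobin, from 84.5 and 92.9 to 11.8 and 14.3 FPKM. Cdh3 and the membrane protease gene Prss8 were the other higher members, and the splicing regulator gene Esrp2 was the other lower one. Of 31 laminins and integrins 24 passed the filter, and 6 of these were lower (25%) and none higher. The counts were 2 lower without iPSC replicate 1, 1 without iPSC replicate 2, and 3 lower with 1 higher without pre-iPSC replicate 1. The 6 included Itgb4 (31.7 and 54.4 to 1.47 and 1.26 FPKM) and Lama3, whose products help hold basal epithelial cells to the basement membrane, and Lama4 (36.1 and 45.2 to 1.51 and 3.16 FPKM). Members that passed the filter only through the libraries where they were high, such as Cldn6 and Lama3, had to differ. The shares of both lists are therefore descriptions.

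Of 20 mesenchymal transition genes 2 were lower, Cd44 (95.7 and 85.7 to 4.99 and 8.60 FPKM) and S100a4 (149 and 431 to 7.42 and 87.2 FPKM), and none was higher, a share of 10% beside 4.71% lower over all genes tested. The count was 1 without either iPSC library and 7 with the MEF libraries left out of the fit, where adhesion genes had 3 higher and 1 lower and collagens 3 and 3. Of 19 adhesion and chemokine genes none passed by limma, with 5 at an unadjusted p below 0.05, as were 2684 of all 12401 tested. Vcam1, an adhesion molecule, was at 4.10 and 1.11 FPKM in pre-iPSCs and at 2.26 and 5.77 FPKM in iPSCs, so the replicates disagreed (adjusted p = 0.70). Inhba, a subunit of activin, was at 2.83 and 5.39 FPKM in pre-iPSCs and at 1.30 and 3.31 FPKM in iPSCs (change -0.65 ± 0.43, adjusted p = 0.46), against 179 and 131 FPKM in MEFs. Of the collagens 2 of 23 were higher, Col9a2 and Col13a1, both under 6 FPKM (8.70%, beside 3.91% of all genes tested). Both were at 0.177 FPKM or below in every pre-iPSC and MEF library. They passed the filter only through the iPSC libraries, so this share is a description. Neither stayed called when an iPSC library was left out.

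The lists of chromatin regulators held 0 to 3 called members each, beside 3.91% higher and 4.71% lower over all genes tested. Of 24 writers, erasers and readers of H3K9 methylation limma called none, with 5 at an unadjusted p below 0.05. Over all 12401 genes tested, 2684 were at such a p. Setdb1, an H3K9 methyltransferase, was at 28.1 and 12.4 FPKM in pre-iPSCs and at 14.3 and 16.3 FPKM in iPSCs (adjusted p = 0.81). Among 32 Polycomb genes Cbx7 was higher (3.47 and 5.10 to 52.7 and 49.5 FPKM) and 2 were lower, Phc2 among them. Cbx7 stood at 0.866 and 0.509 FPKM in MEFs. Of 31 remodellers of the BAF and CHD families 1 was lower, Smarca2 (Brm), an ATPase of the BAF complex, which fell from 30.4 and 69.2 to 1.10 and 2.23 FPKM (change -4.17 ± 0.36). Daxx and Chaf1b, histone chaperones, rose from 18.1 and 9.99 to 49.3 and 30.6 FPKM and from 23.04 and 14.1 to 71.3 and 41.4 FPKM, the called members of 27. Without either iPSC library in turn no Polycomb or chaperone gene was called, and without either pre-iPSC library no chaperone gene was, while 1 remodeller was lower in each case.

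Of 26 genes of threonine, glycine and one-carbon metabolism 2 were higher and 1 lower. Tdh, threonine dehydrogenase, which feeds the glycine pool of mouse embryonic stem cells, fell from 171 and 100 to 23.8 and 28.6 FPKM, while Gldc and Amt of the glycine cleavage system rose, the former from 1.31 and 2.36 to 24.6 and 25.8 FPKM. Cox7a1 was the called member of 34 oxidative phosphorylation genes (4.41 and 4.77 to 76.2 and 51.9 FPKM). Limma called none of 23 glycolysis enzymes, with 4 at an unadjusted p below 0.05, and none of 36 ribosomal protein genes, with 0. Over all 12401 genes tested, 2684 were at such a p. The ribosomal protein genes had a median difference of 0.55 in replicate 1 and -0.51 in replicate 2. Of 34 cell cycle genes 3 were lower, Myc, Cdk6 and Rb1, the last from 19.5 and 17.9 to 3.31 and 4.54 FPKM. Without iPSC replicate 1 the metabolism list had 1 higher and none lower and 1 cell cycle gene was lower, and without iPSC replicate 2 neither list had a called member. Of 28 imprinted genes Phlda2 was higher and Grb10 lower (3.57% each), and of 30 Hox genes Hoxa7 and Hoxc4 were lower (6.67%), shares near the 3.91% and 4.71% of all genes tested. The median change of the Hox genes was -0.87 (-0.83 in replicate 1 and -0.68 in replicate 2), against -0.09 for all genes tested. By limma 15 of the 30 had an unadjusted p below 0.05. With the MEF libraries left out of the fit 1 Hox gene was higher and 13 were lower, and without either iPSC library none was called. The Y-linked gene Kdm5d fell from 4.09 and 4.12 to 0.660 and 0.483 FPKM, while Eif2s3y was at 14.9 and 18.2 FPKM in pre-iPSCs and at 14.7 and 26.2 FPKM in iPSCs.

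Further lists held up to 3 called members in a direction, beside 3.91% higher and 4.71% lower over all genes tested. Without either iPSC library in turn none of these lists had a called member, except the lineage factors, with 1 lower without iPSC replicate 2. Of 27 lineage transcription factors 2 (Sox1 and Sox3) were higher and 3 lower, and the lower ones were all T-box genes: Tbx15 (44.7 and 21.1 to 1.22 and 2.27 FPKM), Tbx4 and Tbx18. Of 26 matrix proteases and inhibitors Mmp11 was higher and Timp3 and Plaur were lower. Timp3, an inhibitor of matrix proteases, fell from 30.6 and 73.8 to 4.65 and 7.82 FPKM. Of 17 smooth muscle contractile genes Actg2 and Tagln2 were lower, and neither without pre-iPSC replicate 2. Of 16 interferon response genes Oasl2 was higher and Oas1a lower, the latter from 8.42 and 7.50 to 0.683 and 0.726 FPKM. MHC class I presentation (14 genes) and telomere proteins (16 genes) had none called by limma and 1 each at an unadjusted p below 0.05. Over all 12401 genes tested, 2684 were at such a p. Among markers of other cell types, primitive endoderm (10 tested), haematopoietic (9) and muscle markers (5) had none called by limma, with 3, 3 and 1 at an unadjusted p below 0.05. Of 6 endothelial markers Pecam1 was higher (1.22 and 1.81 to 15.9 and 12.7 FPKM) and Tek lower, of 6 neural markers Elavl3 and Sox1 were higher, and of 8 trophoblast markers Krt18 was higher. Of the largest changes not named so far, Fmr1nb, an X-linked gene of testis, was listed at 0 in pre-iPSCs and at 30.3 and 50.1 FPKM in iPSCs.

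**Figure D4:**
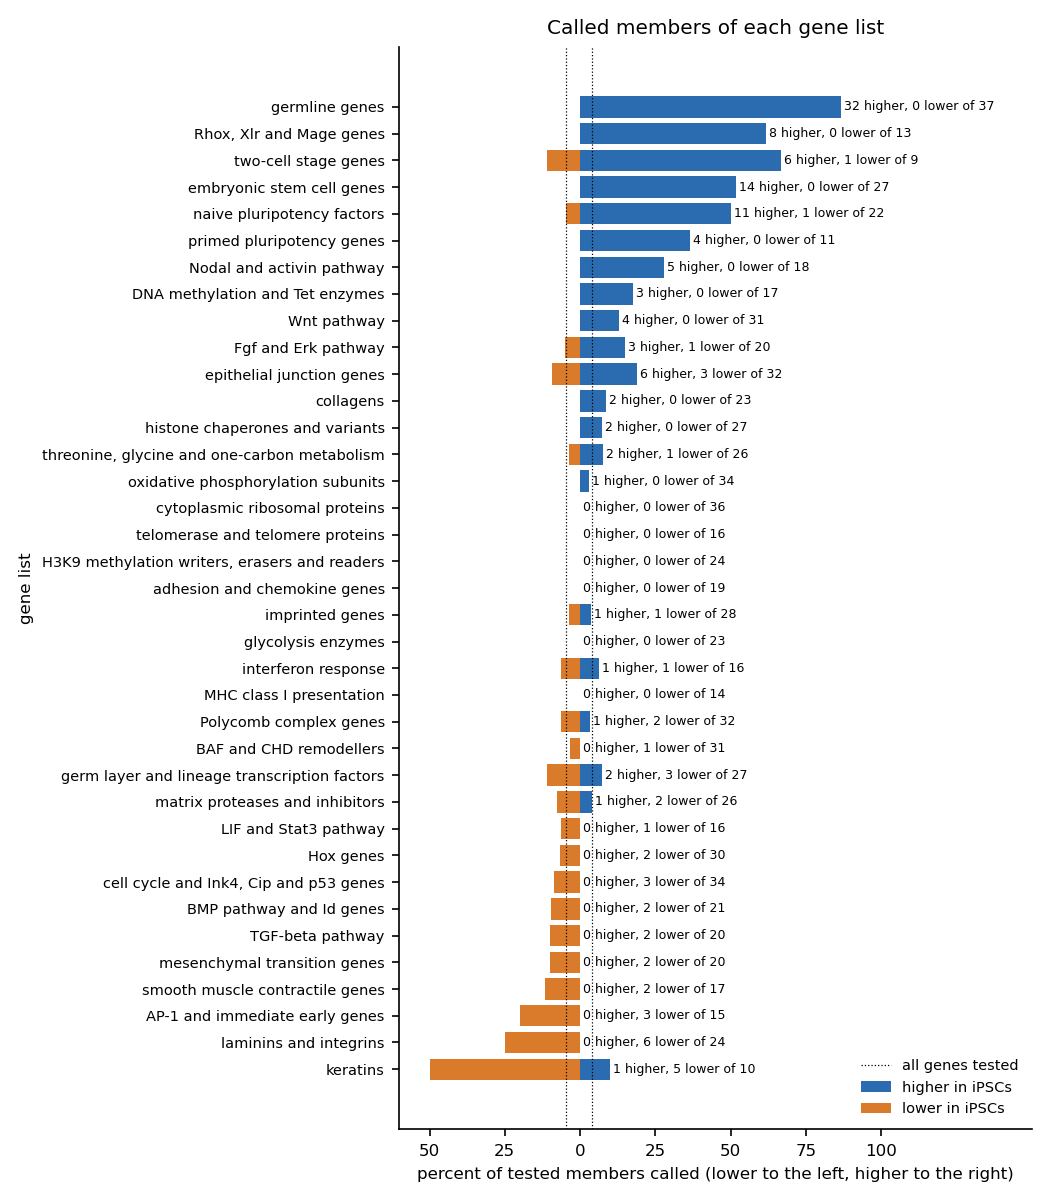
Percent of the tested members of each of 37 gene lists called higher (blue, to the right) or lower (orange, to the left) in iPSCs than in pre-iPSCs, with the counts beside the bars. The dotted lines give the shares over all genes tested, 3.91% higher and 4.71% lower, and germline genes (32 of 37 higher) and keratins (5 of 10 lower) are at the ends. Members that passed the filter only through the libraries where they were high had to differ, so these shares are descriptions.

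Some called genes also lay next to each other in the order of the genes tested. Among genes tested, taken in order along the chromosome, 7 runs of at least 4 neighbours were called the same way, and these are named because they met that length, with their values seen. Genes not tested were skipped in this order, and the number of runs to expect was not computed. Genes that passed the filter only through the libraries where they were high, such as Zscan4f, had to differ. The runs are therefore descriptions. A pair of runs on chromosome 4 (mm9, chr4:145260600-146166150 and chr4:146549975-147183897) held 5 genes each, among them the zinc finger genes Zfp600 and Zfp534, all higher. Zfp534 rose from 0.168 and 0.0749 to 11.4 and 21.0 FPKM and Gm13051 from 0 in both to 16.9 and 30.7 FPKM. The 5 Zscan4 genes on chromosome 7 and 4 neighbours on chromosome 12 (Gm8300, Gm2016, Gm2022 and Gm5662) were the other runs that were higher. Those that were lower were the type I keratins Krt13, Krt19, Krt14, Krt16 and Krt17 on chromosome 11 (chr11:99978910-100122303), S100a14, S100a16, S100a3, S100a4 and S100a6 on chromosome 3 (chr3:90330771-90418336) and the kallikreins Klk1b22, Klk1b24, Klk1b3 and Klk1 on chromosome 7. S100a16 fell from 130 and 244 to 4.15 and 3.21 FPKM. Kallikreins of the Klk1b group and the zinc finger genes on chromosome 4 are close paralogs. Their levels are uncertain, since only uniquely mapped reads were kept.

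Histone marks were then read at the same genes, from MNase ChIP-seq libraries that the calls did not use. Reads in called nucleosomes were counted within 2000 bp of the start site and scaled to the width of the window and to all reads in calls of the library (RPKM). At genes called lower the median H3K27me3 was 0.333 and 0.302 RPKM in pre-iPSCs and 0.555 and 0.554 RPKM in iPSCs. At genes called higher it was 0.525 and 0.567 RPKM in pre-iPSCs and 0.430 and 0.443 RPKM in iPSCs. Over all genes tested it was 0.298 and 0.265 against 0.340 and 0.314 RPKM. In both directions the iPSC medians lay outside the pre-iPSC medians, and the change was opposite to that of expression.

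Both iPSC libraries had more H3K27me3 than both pre-iPSC libraries at 385 of the 584 genes called lower (65.9%), against 28.2% of all genes tested, and less at 14 (2.40%), against 13.2%. Among genes called higher, both had more at 39 (8.04%) and less at 223 (46.0%). With edgeR, of the 567 genes called lower whose windows were tested, 102 (18.0%) passed with more H3K27me3 and 0 with less, although 5 had less at an unadjusted p below 0.05. Of 11420 genes tested for both, 160 (1.4%) passed with more and 36 (0.315%) with less. Of 447 genes called higher, 22 (4.92%) passed with less and 1 with more. These calls rested on the tool and the libraries: DESeq2 called none in either set, with 151 of the genes called lower and 60 of those called higher at an unadjusted p below 0.05, and edgeR called 51 without pre-iPSC replicate 1, 22 without pre-iPSC replicate 2, 18 without iPSC replicate 1 and 34 without iPSC replicate 2. For the 22 the counts were 19, 5, 0 and 12. Within 500 bp, with fewer reads, edgeR called H3K27me3 higher at 4 of 4436 promoters, with 375 at an unadjusted p below 0.05. DESeq2 called 0 of the 19732 promoters it tested, with 153 at such a p.

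Genes with large falls were among those that passed for H3K27me3. At Itgb4 it went from 0.245 and 0.132 RPKM in pre-iPSCs to 0.967 and 0.739 RPKM in iPSCs (log2 change 2.06, adjusted p = 0.000247 by edgeR), and at Id1 from 0.175 and 0.132 to 0.752 and 0.628 RPKM. Nccrp1 (0.193 and 0.246 to 0.717 and 0.905 RPKM), S100a3, Lgals7, Krt19, Smarca2, Cd44, Fosl2, Osmr, Tgfbr2 and Atp2a3 also passed. Klk1, the largest fall, did not (0.280 and 0.302 against 0.412 and 0.406 RPKM, adjusted p = 0.758 by edgeR), and its libraries did not overlap. Myc (0.403 and 0.680 against 0.287 and 0.425 RPKM) and Klf4 did not pass either. Among the rises, Utf1 went from 0.875 and 0.718 to 0.215 and 0.259 RPKM (log2 change -1.83, adjusted p = 0.00053 by edgeR), and Lin28a and Gm7325 passed as well.

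For H3K4me3 fewer genes passed. At genes called higher its median within 2000 bp was 0.799 and 0.723 RPKM in pre-iPSCs and 0.961 and 0.954 RPKM in iPSCs, and at genes called lower 1.21 and 1.20 against 1.02 and 1.12 RPKM. Both iPSC libraries lay above both pre-iPSC libraries at 248 of the 485 genes called higher (51.1%), against 15.9% of all genes tested, and below them at 216 of the 584 called lower (37.0%), against 25.2%. With edgeR 4 of 454 genes called higher passed with more H3K4me3 and 3 of 576 called lower with less, where 0.0407% and 0.0325% of 12295 genes did. All 4 lie on chromosome 8, where iPSC replicate 1 stood apart, so a fit without that chromosome had to lose them. Leaving out chromosome 8 took the 4 to 0, DESeq2 called 0 of either set (42 and 34 at an unadjusted p below 0.05), and without iPSC replicate 2 the counts were 17 and 18. Leaving out any other library lowered both counts. Of the 15 promoters that edgeR called in all, 6 lie on chromosome 8, Zfp42 included (0.437 and 0.442 RPKM in pre-iPSCs, 1.23 and 0.974 RPKM in iPSCs). Within 500 bp edgeR called 0 of 14874 promoters, with 1080 at an unadjusted p below 0.05, and DESeq2 called 0 of 19754, with 271. The 32 germline members called higher had median H3K4me3 of 0.561 and 0.482 RPKM in pre-iPSCs and 0.730 and 0.660 RPKM in iPSCs, while their H3K27me3 was 0.481 and 0.454 against 0.448 and 0.480 RPKM, with overlap.

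**Figure D5:**
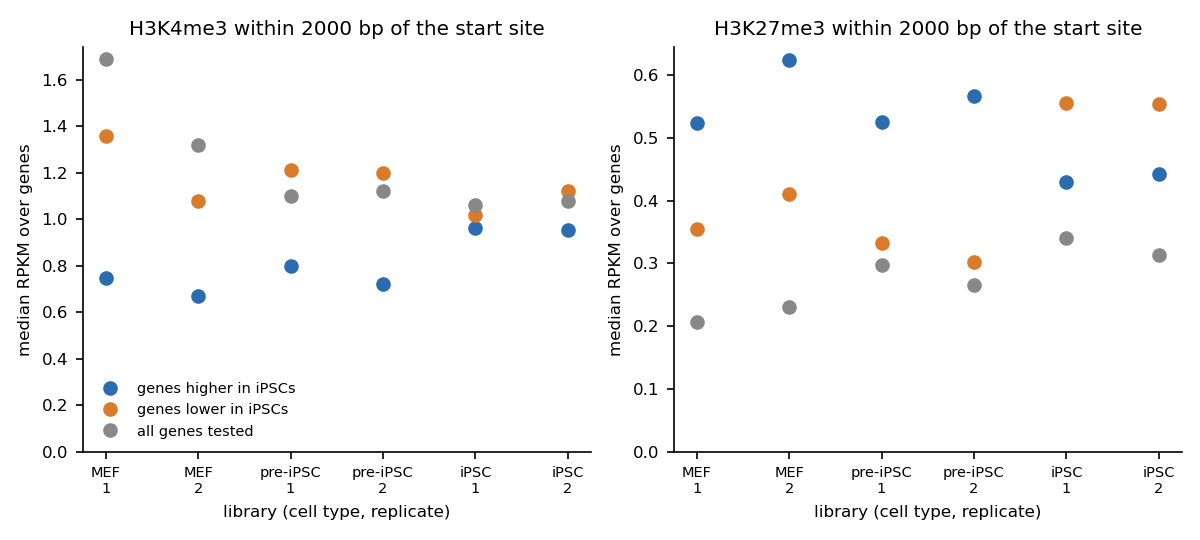
Median H3K4me3 (left) and H3K27me3 (right) in RPKM within 2000 bp of the start site, for each of 6 libraries a mark, at genes called higher (blue), at genes called lower (orange) and at all genes tested (grey). From pre-iPSCs to iPSCs, median H3K27me3 at the lower genes goes from 0.333 and 0.302 to 0.555 and 0.554 RPKM.

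H3K9me3 was measured in 1 library of each cell type and has no replicate check. The iPSC library is of replicate 1, and chromosome 8 held 7.45% of its reads, against 5.31% in the pre-iPSC library. Levels were scaled to all reads, so this difference enters them. Its median within 2000 bp was 0.425 RPKM in pre-iPSCs and 0.368 RPKM in iPSCs at the genes called higher, and 0.309 and 0.429 RPKM at the genes called lower, against 0.309 and 0.348 RPKM over all genes tested. It was lower in the iPSC library at 57.1% of the genes called higher and at 38.9% of all genes tested. At 77.6% of the genes called lower it was higher there, against 60.9% of all genes tested.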

How the data were processed

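Expression was measured in 2 RNA-seq libraries each of MEFs, pre-iPSCs and iPSCs. RNA came from Trizol extraction with DNase I treatment. The authors mapped reads to mm9 (TopHat2 2.0.4 in the submitters' processing notes) and deposited FPKM values from Cuffdiff (Cufflinks 2.0.2), for coding genes. The deposited ChIP-seq counts are reads of nucleosomes that the authors called after alignment with Bowtie 1.0.1. Depth of the RNA libraries is unknown. The nucleosome calls hold 12007350 to 15222040 reads a library for the marks used.

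The scale log2(FPKM + 1) was fitted in limma 3.58.1 (trend) over all 6 RNA libraries, MEFs included, with the table as a term. Genes averaging under 0.5 FPKM were left out, and p-values were adjusted by Benjamini-Hochberg over all genes tested. Marks were tested in edgeR 4.0.16 (quasi-likelihood, TMM, filterByExpr), and again in DESeq2 1.42.0, on reads whose nucleosome centre lay within 500 or 2000 bp of the start site. Exact permutation of 2 against 2 libraries cannot give a p below 0.33, so none was run. Software was R 4.3.3 and Python 3.11.15 (pandas 2.3.3, numpy 2.4.6, scipy 1.17.1). The tests were tested on simulated data: with changes of 2, 4 and 8-fold planted in 200 of 12401 genes each, the expression test recovered 1, 161 and 197. It also called 0, 15 and 10 other genes. For H3K4me3 within 500 bp, 22, 178 and 198 of 200 planted promoters were recovered, with 2, 18 and 5 others called. Neither planted changes in genes or promoters of low level, while many genes called higher were low in pre-iPSCs.

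The naming rule took the 15 largest rises and falls called, Zfp42, Ddx4, Nanog, Inhba, Vcam1, Setdb1 and the reprogramming factors, and in each list up to 5 called members of largest change or, with under 2 called, the 2 of highest level. Other genes were named after their values were seen. Members and lists were chosen with earlier results of these data known. Leaving out chromosome 8 and the alternatives for marks within 2000 bp were added after seeing the data. Replicate differences correlated at 0.112 between pre-iPSCs and iPSCs, 0.346 between MEFs and pre-iPSCs and -0.205 between MEFs and iPSCs, so same-numbered libraries share a table but were not taken as pairs beyond it. Sequences are from the mm9 (NCBIM37) genome. Some items are not reported here.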

Additional observations from a re-analysis of the deposited data

How the results depend on the processing

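The counts of called genes moved most with the libraries in the fit. Leaving out 1 library at a time gave 87 to 2281 called genes, 59 to 942 higher and 28 to 1339 lower, with the lowest counts without iPSC replicate 2 and the highest without MEF replicate 2. With the MEF libraries out of the fit, 2130 were called, 878 higher and 1252 lower. With no filter on low values 367 were lower, and with a pseudocount of 0.1 FPKM 962 genes were past 2-fold upwards in both tables. The fit with no replicate block called 528 higher and 596 lower. For promoters within 500 bp, H3K4me3 calls were 0 with the replicate block, 2 with no filter, 15 within 2000 bp and 0 to 2 with 1 library left out, and H3K27me3 calls were 0 by DESeq2, 2 with the replicate block, 215 within 2000 bp and 0 to 5 with 1 library left out. Within 2000 bp the H3K27me3 calls at genes called lower were 0 by DESeq2, 91 with the replicate block and 18 to 116 with 1 library left out, and those at genes called higher were 0, 21 and 0 to 33. The cause was not tested. Of the 122 called genes that the naming rule took, none changed direction under the alternatives run. All called genes had moved the same way in both replicates, so their direction could hardly change. Without either iPSC replicate in turn, most of those named were no longer called.

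Genes not called could turn direction when 1 library was left out. Their log2 change ran from -0.50 to 2.64 for Ccl2, -0.40 to 2.30 for Lyz2, -0.040 to 1.11 for Gapdh, -0.54 to 1.57 for Vcam1, -0.24 to 1.24 for Col1a1, -0.64 to 1.51 for Rpl28, -0.053 to 0.83 for Socs3, -0.27 to 0.87 for Atp5b, -0.26 to 0.75 for Eif2s3y, -0.26 to 0.67 for Acta1, -0.65 to 1.00 for Sparc and -0.78 to 1.12 for Rps20 (-0.0016 with quantile normalization). It ran from -0.24 to 0.52 for Nhp2, -0.92 to 0.65 for Nop10, -0.48 to 0.20 for Cbx3, -0.60 to 0.24 for Smarcb1, -0.48 to 0.039 for Eif2s3x, -0.50 to 0.056 for Chd4, -0.996 to 0.44 for Setdb1, -1.49 to 0.54 for Des, -1.37 to 0.36 for B2m and -2.71 to 0.35 for Pou5f1.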

Other observations

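Symbol families with at least 8 tested members were counted, chosen after their values were seen. Over all genes tested 3.91% were higher and 4.71% lower. Of 9 kallikreins (Klk) 7 were lower and none higher, with a median change of -3.03, and the levels of close copies among them are uncertain. Of 10 annexins (Anxa), calcium-dependent membrane-binding proteins, 4 were lower and none higher, with a median of -1.45. Of 11 Tex genes, named for testis expression, 5 were higher and 1 lower. By chromosome, the X held 31 higher genes of 423 tested (7.33%) and chromosome 1 held 52 lower of 699 (7.44%). Genes that passed the filter only through the libraries where they were high had to differ, as Klk1 did. The shares of families and chromosomes are therefore descriptions.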
